A study of Homo sapiens with 6 samples.

Results

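The loci of the glucocorticoid receptor gene NR3C1 and of the mineralocorticoid receptor gene NR3C2 were followed by their open chromatin. The assay was ATAC-seq, in which a transposase cuts and tags accessible DNA, and the cells were 22Rv1, an established line from a human prostate carcinoma. All 6 libraries carry the label FOXA1_dTAG, with 2 libraries each at 0 h, 1 h and 24 h. FOXA1 is a forkhead pioneer transcription factor, and a dTAG is a fused tag through which a small molecule sends a protein to degradation. The 0 h cells carry the same label as the later ones and served as the reference. The agent, its dose, the number of clones and the origin of the replicates are not given in the sources used here, so replicates may differ by technical spread alone, and FOXA1 protein was not measured in the files used. Members were all peaks overlapping chr5:142600000-142850000 (hg19) for NR3C1 and chr4:148950000-149420000 for NR3C2. Peaks of the 6 lists that shared at least 1 bp were merged, which gave 18 regions at NR3C1 and 22 at NR3C2, 40 of the 167726 regions on the autosomes and X. The regions are called GR-a to GR-r and MR-a to MR-v in order of position, and each is open chromatin at the locus, not a measure of the gene's RNA.

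Both genes encode steroid hormone receptors of the same subfamily as the androgen receptor. They rest in the cytoplasm with HSP90 chaperones, enter the nucleus once bound by hormone, and recognise the same inverted-repeat hormone response element. The glucocorticoid receptor answers to cortisol and is known in prostate cancer for taking over part of the androgen receptor's gene program under antiandrogen treatment. The mineralocorticoid receptor binds aldosterone and cortisol and is best known for sodium handling in the kidney. FOXA1 opens chromatin at many of the sites that steroid receptors use in prostate cells.

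Sequences of the open regions themselves need the hg19 genome, which was not used here. RefSeq's promoter table (GRCh38.p14) holds 7 start-site windows for NR3C1 and 4 for NR3C2, all on the minus strand. The 250 bases before each start were searched on both strands for TGTTTAC, a forkhead core of the kind FOXA1 recognises. It occurred in 1 of the 7 NR3C1 windows, in none of the 4 NR3C2 windows, and in 2.98% of the 35114 windows of that length in the table. The hormone receptor half-site AGAACA was in none of the 11 and in 12.4% of all windows. The NR3C2 windows chr4:148444699-148444948 and chr4:148444708-148444957 overlap over most of their length, so the windows counted are not all separate sequences. The NR3C1 window with the forkhead match, chr5:143403284-143403533 in GRCh38.p14, is shown 5′ to 3′ with the match in capitals. Beside it stands the NR3C2 window chr4:148442415-148442664 with its 2 CCAAT boxes in capitals (CCAAT on either strand was in 32.0% of all windows). CCAAT was not particular to NR3C2, whose other windows had none. The NR3C1 windows chr5:143404483-143404732, chr5:143405356-143405605 and chr5:143435513-143435762, not shown, held 1 each. Which hg19 region holds these windows was not determined, and a match is not a measured binding site.
NR3C1: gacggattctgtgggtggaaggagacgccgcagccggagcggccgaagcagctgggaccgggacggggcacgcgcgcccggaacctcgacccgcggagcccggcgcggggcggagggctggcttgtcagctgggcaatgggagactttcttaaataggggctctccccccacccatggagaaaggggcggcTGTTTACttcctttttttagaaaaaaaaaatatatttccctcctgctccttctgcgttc
NR3C2: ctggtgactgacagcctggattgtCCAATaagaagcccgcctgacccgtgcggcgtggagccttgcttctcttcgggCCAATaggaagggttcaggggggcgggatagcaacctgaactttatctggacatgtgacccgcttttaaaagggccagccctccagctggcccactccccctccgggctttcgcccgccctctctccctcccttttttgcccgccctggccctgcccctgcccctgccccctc
The start-site windows of NR3C1 differed widely in composition, from 32.8% G and C with 0 CpG to 82% with 42 CpG. Those of NR3C2 were all rich in G and C, from 63.6% to 81.6% with 11 to 40 CpG.

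Each library was deposited as its own peak list of 101755 to 125396 peaks on the autosomes and X. The relative depth, read back from each list's background in tags per kb, was 10.5 and 8.29 for the 0 h libraries. It was 8.14 and 8.63 for those of 1 h, and 7.35 and 7.06 for those of 24 h. The 24 h libraries were thus the shallowest and 0h replicate 1 was the deepest, and the part of depth in the results below was not tested. A peak's fold is the authors' deposited MACS2 value, the pileup at its summit over the local background, each with a pseudocount of 1. Folds were set within each list and are given side by side. With 2 libraries per time, the exact two-sided permutation test between 2 times cannot give a p below 0.333, so the text says which libraries were higher or lower and whether the times overlap.

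The NR3C1 window had 7.20 open regions per 100 kb (18 regions in 250 kb), against 5.21 on the rest of chromosome 5 and 5.53 over the autosomes and X. Whether windows of this length commonly differ by as much was not tested. At NR3C2 the density was 4.68 per 100 kb, close to the 4.71 on the rest of chromosome 4. At NR3C1, 10 of 18 regions had a peak in all 6 libraries and at NR3C2 8 of 22, against 43.3% of all regions. A peak in only 1 library was found for 2 NR3C1 and 4 NR3C2 regions (22.5% of all regions). Whether a region lies in a promoter, exon or intron needs an hg19 annotation, which was not used. In RefSeq's GRCh38.p14 the nearest protein-coding neighbours are ARHGAP26 and HMHB1 for NR3C1 and ARHGAP10 and IQCM for NR3C2. Regions near the window edges, such as GR-a and GR-b or MR-a and MR-b at the left edges, may thus belong to other genes.

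**Figure D1:**
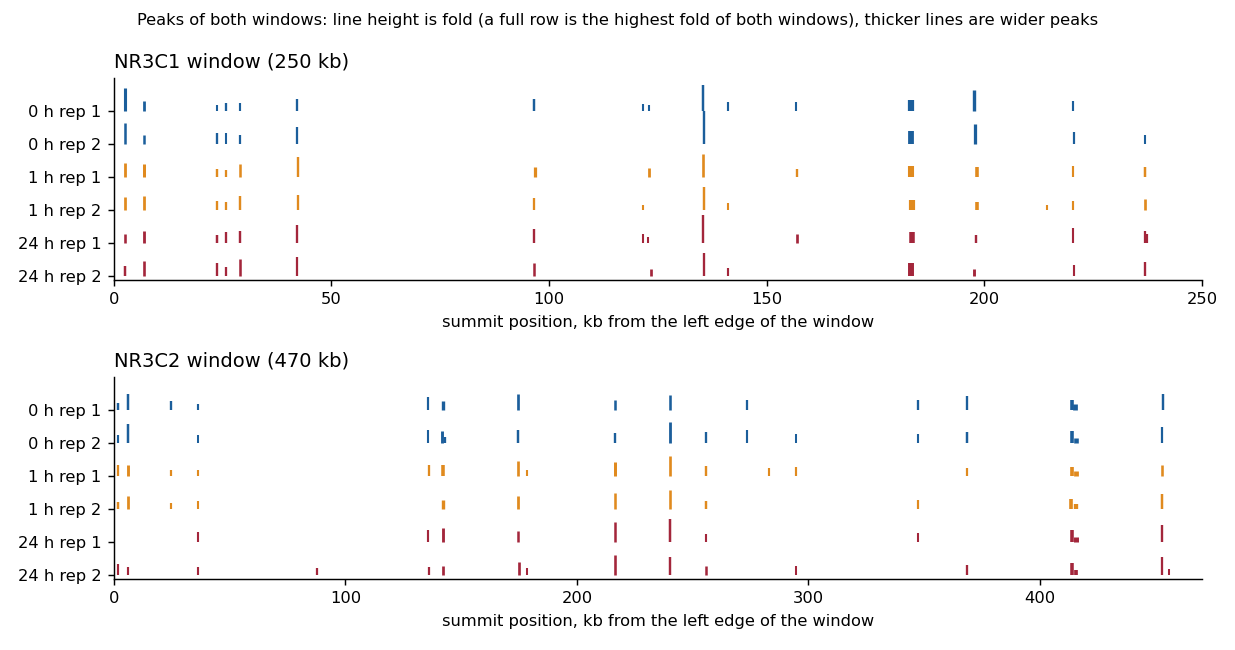
Peaks in the NR3C1 window (top, 250 kb) and the NR3C2 window (bottom, 470 kb), 1 row per library. Each line is a region in 1 library, placed by the summit of its strongest peak in kb from the left edge. Height is proportional to fold, and lines are thicker where the summed width of the region's peaks is greater. Lines stand in all 6 rows at 10 of 18 NR3C1 and 8 of 22 NR3C2 positions, and the tall lines at the left edge and just right of the thickest lines of the NR3C1 window shorten from 0 h to 24 h.

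The number of NR3C1 peaks in the 2 libraries of a time was 15 and 11 (0 h), 14 and 15 (1 h), and 17 and 16 (24 h). Its mean was 13.0 ± 2.83 (SD, n = 2), 14.5 ± 0.707 and 16.5 ± 0.707, and both 24 h libraries exceeded the other 4 (exact two-sided permutation p = 0.333 against either time, the smallest possible). This order rested on regions with more than 1 peak (GR-m in 24h replicate 1, GR-i and GR-n in 24h replicate 2). Counted as merged regions, NR3C1 had 15 and 11 at 0 h, 14 and 15 at 1 h, then 16 and 14 at 24 h, which overlap. Peaks with a −log10 q of at least 5, or lists cut to one length, also overlapped (exact permutation p = 0.667 against 0 h and p = 1 against 1 h under both). At NR3C2 the numbers were 16 and 19, then 17 and 16, then 12 and 19, so the times overlapped (exact permutation p = 1 for each pair of times). The lists as a whole were shorter at 24 h than at 0 h.

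No region was lost at NR3C1. A region counts as lost when both earlier libraries hold a peak and neither later one does, and as gained in the reverse case. Of the 10 NR3C1 regions held by both 0 h libraries, 0 were lost at 1 h and 0 at 24 h, where 7.48% and 13.1% of such regions were lost over all 99494. At NR3C2, 1 of 14 was lost at 1 h, and the same region, MR-n, was lost at 24 h. No region was gained at either locus against 0 h, with 12 and 12 regions held by both 1 h libraries and 13 and 10 by both 24 h libraries. Over all regions the gained shares were 3.93% and 6.54%. With peaks below a −log10 q of 5 disregarded, 1 NR3C1 region, GR-n, was lost at 24 h, and MR-r joined MR-n among the losses at 1 h. Regions strong in both 0 h libraries (a −log10 q of at least 10) numbered 6 at each locus. None of them lacked a peak in both 1 h or both 24 h libraries, against 1.51% and 4.02% of all such regions. With so few regions per locus, the counts of lost and gained regions are near these background shares and say little about either locus.

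In the NR3C1 window, GR-a and GR-n were well below their 0 h level from 1 h on. GR-a lies near the left edge of the window, so it may belong to another gene. GR-a (chr5:142602014-142602749, 736 bp) had folds of 13.4 and 12.01 at 0 h, 7.98 and 7.50 at 1 h, then 5.60 and 6.25 at 24 h. The 3 times did not overlap, and each step was downward; 1 of the 10 NR3C1 regions held by all 6 libraries had this order, as did 4.21% of all 72695. Its mean fold was 12.7 ± 0.971 (SD, n = 2) at 0 h, and the 24 h mean was lower by a factor of 2.14 (log2 −1.10). Of the 75341 regions kept in all 4 libraries of 0 h and 24 h, 1.00% had a log2 ratio as low. That share leaves out regions lost at 24 h, 13.1% of those held by both 0 h libraries, which have no ratio. The GR-a peak spanned 736 and 419 bp at 0 h against 456 and 385 bp at 24 h, widths that overlap. Its −log10 q was 62.4 and 37.6 at 0 h against 9.35 and 9.70 at 24 h. The summits stayed within 75 bp of each other in the 6 libraries.

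GR-n (chr5:142797348-142798454, 1107 bp) was the NR3C1 region with the lowest ratio of later to earlier fold. Its folds were 12.4 and 11.9 at 0 h, 6.02 and 4.70 at 1 h, then 4.81 and 4.09 at 24 h. Both 0 h libraries stood above all later ones, and 1 h and 24 h overlapped. The mean was lower than at 0 h by a factor of 2.27 at 1 h (log2 −1.18) and of 2.73 at 24 h (log2 −1.45). Among kept regions alone, since lost ones have no ratio, 0.633% and 0.228% had ratios as low as those of GR-n. At 0 h the 2 summits lay 397 and 421 bp from the region's left end, and at 1 h they lay at 897 and 882 bp. At 24 h they were at 841 and 352 bp. The strongest point of the region at 0 h was thus not the strongest at 1 h. The fold and pileup ratios of GR-n therefore compare different points in part, and the change at the 0 h summit itself was not measured. Among kept regions at least 1000 bp long, 2.90% had both 1 h summits at least 250 bp to 1 side of both 0 h summits, as did GR-n, 1 of the 2 NR3C1 regions of that length, and none of the 3 at NR3C2. For 24 h against 0 h the share was 3.02%, and none of the 2 NR3C1 and 3 NR3C2 regions did. The peak was wider at 1 h (1020 and 1035 bp) than at 0 h (894 and 829 bp). It was narrower than both at 24 h, with 339 bp in one library and 2 peaks of 623 bp in sum in the other. Peak length also differed between whole lists. Either 1 h list had a longer shortest peak (replicate 1 172 bp, replicate 2 160 bp) than any other list. Median length per list ran from 281 bp (0h replicate 2) to 416 bp (1h replicate 1), though 0h replicate 1 (388 bp) exceeded 1h replicate 2 (370 bp). The part of such list differences in the widths of GR-n and GR-a was not tested.

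GR-e, GR-b, GR-f and GR-q had higher folds later. GR-e (chr5:142628697-142629148) had folds of 4.53 and 5.56 at 0 h, 7.41 and 8.36 at 1 h, then 7.002 and 9.83 at 24 h. Every later library was above both 0 h libraries, and the mean at 24 h was 1.67 times that at 0 h (log2 0.74), a ratio reached by 2.31% of all kept regions. At 1 h the ratio was 1.56 (log2 0.64), reached by 0.793%. GR-b (chr5:142606459-142607226), the next region to the right of GR-a, had 5.76 and 5.54 at 0 h, 7.62 and 8.35 at 1 h, then 6.93 and 8.85 at 24 h, again with no overlap between 0 h and the later times. GR-f (chr5:142641964-142642346) had 7.25 and 9.92 at 0 h and 10.6 and 11.2 at 24 h. Its 1 h folds of 11.7 and 8.83 overlapped both. GR-q (chr5:142836564-142837075) had no peak in 0h replicate 1, the deepest library, and a fold of 5.22 in 0h replicate 2. Its later folds were 5.83 and 6.73 at 1 h and 7.22 and 8.17 at 24 h, above every earlier one.

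The strongest and the widest NR3C1 regions were held at all times. GR-j (chr5:142735245-142735730) had the highest folds of the window, 15.2 and 18.8 at 0 h, 13.3 and 13.5 at 1 h, then 16.3 and 13.3 at 24 h. The 1 h folds were below both 0 h folds, and the 24 h folds overlapped both earlier times. GR-m (chr5:142782803-142785384) spanned 2582 bp, with peaks of 2145 to 2543 bp in sum per library. Its folds were 6.65 and 7.55 at 0 h, 6.38 and 6.12 at 1 h, then 6.74 and 7.49 at 24 h, so 0 h and 24 h overlapped (log2 0.00). The lower 1 h folds of GR-m depended on the measure, since the summit pileup scaled by library gave a log2 of 0.14 for 1 h against 0 h. Its summit pileup was 93 and 62 at 0 h and 65 and 65 at 24 h, on local backgrounds of 7.35 to 13.1.

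GR-c, GR-d and GR-p also had a peak in all 6 libraries, with folds between 3.76 and 8.66, and their 0 h and 24 h folds overlapped. The remaining 7 NR3C1 regions were weaker or seen in fewer libraries. GR-g lacked a peak in 0h replicate 2 alone and had folds of 5.83 to 8.18 elsewhere. GR-h, GR-i, GR-k and GR-l were found in 3 or 4 libraries with folds of 3.36 to 5.42, and 0h replicate 1 held all 4 of them. GR-o was seen in 1h replicate 2 alone and GR-r in 24h replicate 1 alone.

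**Figure D2:**
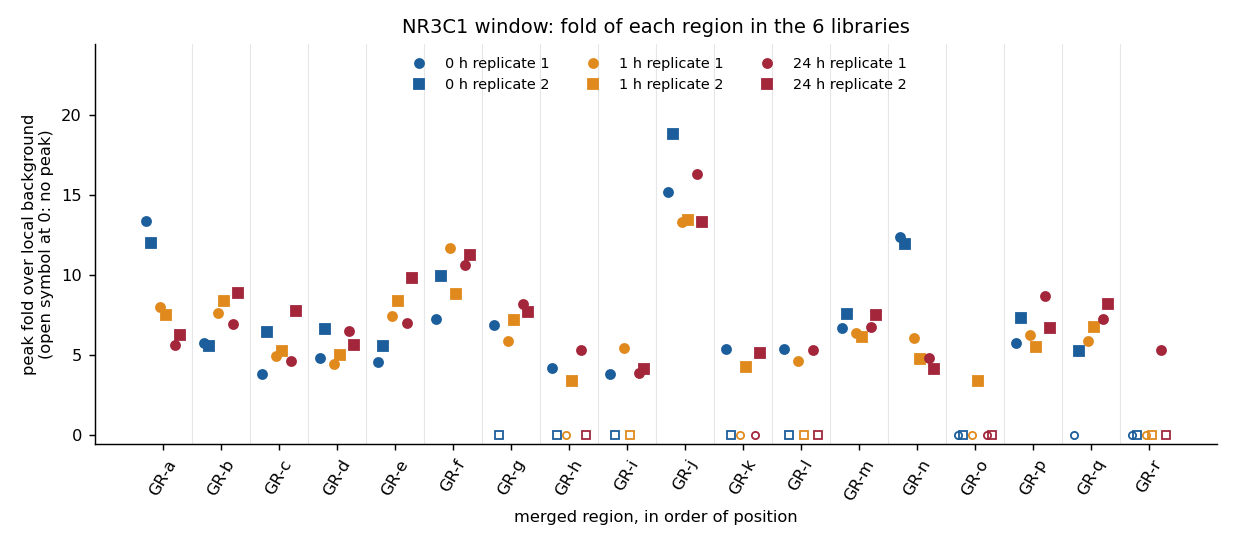
Fold over local background (vertical axis) of the 18 NR3C1 regions in order of position, for the 6 libraries; color gives the time, shape the replicate, and an open symbol at 0 a library with no peak. GR-a and GR-n have their 0 h points (12.4 and 11.9 for GR-n) far above the later ones, while GR-e has them below.

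At NR3C2, MR-n was the region lost at both later times. MR-n (chr4:149223581-149223831, 251 bp) had folds of 5.73 and 7.83 at 0 h, with a −log10 q of 7.55 and 10.7, and no peak in any of the 4 later libraries. Its summit pileup was 14 in each 0 h library, and the exact 95% Poisson interval of 14 runs from 7.65 to 23.5 (counting error only). The pileup needed for a peak lay not far below, since the weakest peaks of the window had a pileup of 6, so MR-n shows a drop below the calling limit and not how far.

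MR-b and MR-r were also below their 0 h level where they were seen, though MR-r hardly so at 24 h. Its summit pileup was 11 in both 24h replicate 2 and 0h replicate 2. MR-b (chr4:148955763-148956389) had folds of 9.40 and 10.8 at 0 h, 6.67 and 7.49 at 1 h, no peak in 24h replicate 1 and 5.11 in 24h replicate 2. The 1 h folds were below both 0 h folds (ratio 0.700, log2 −0.52), and the single 24 h fold was below all 4 earlier ones. MR-r (chr4:149318356-149318782) had 8.02 and 6.27 at 0 h, 4.58 in 1h replicate 1 and 6.13 in 24h replicate 2, with no peak in 1h replicate 2 or 24h replicate 1. MR-f (chr4:149085780-149086099) had 7.64 and 7.83 at 0 h, 6.67 in 1h replicate 1 with no peak in 1h replicate 2, and 7.22 and 4.60 at 24 h. MR-i (chr4:149124513-149125082) had 9.24 and 7.93 at 0 h, 8.99 and 7.40 at 1 h, then 6.26 and 7.55 at 24 h. For MR-f and MR-i both 24 h folds were below both 0 h folds, with mean ratios of 0.764 and 0.804. Ratios as low were found for 13.2% and 17.4% of kept regions. Without 24h replicate 2 the log2 ratio of MR-f was −0.099, against −0.39 with both 24 h libraries. Its summit pileup was 14 in both 24h replicate 1 and 0h replicate 2. The 1 h folds of MR-i overlapped those at 0 h. Between 1 h and 24 h, MR-c (chr4:148974482-148974801) was the 1 lost region of the 12 NR3C2 regions held by both 1 h libraries, with 0 of 12 at NR3C1 and 6.42% of all such regions. It was weak, with folds of 3.75 and 3.78 at 1 h and no peak in 0h replicate 2. No region of either locus was gained between these times, against 3.85% of all.

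MR-k went the other way and was higher at each time. MR-k (chr4:149166100-149166777, 678 bp) had folds of 6.11 and 5.74 at 0 h, 8.33 and 9.25 at 1 h, then 11.6 and 11.9 at 24 h. The 3 times did not overlap; 1 of the 8 NR3C2 regions held by all 6 libraries had this order, as did 3.31% of all such regions. The mean at 24 h, 11.7 ± 0.242 (SD, n = 2), was 1.98 times the 0 h mean of 5.93 ± 0.259 (log2 0.98), a ratio reached by 0.717% of all kept regions. At 24 h it stood beside MR-l as one of the 2 strongest regions of the window. At 0 h it was below MR-b, MR-f, MR-i, MR-l, MR-r and MR-u in both libraries.

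MR-l (chr4:149189903-149190478) was strong throughout, with 8.78 and 12.01 at 0 h, 11.7 and 11.3 at 1 h, then 13.5 and 10.7 at 24 h, and the times overlapped. MR-u (chr4:149402733-149403183) was lower at 1 h than at the other times, with 9.54 and 9.40 at 0 h, 6.67 and 8.83 at 1 h, then 10.1 and 10.5 at 24 h. The broad regions MR-s (chr4:149363195-149364271) and MR-t (chr4:149365138-149367011) lie 866 bp apart and were held by all 6 libraries. MR-s had the highest pileups of the window, 81 to 115, with folds of 5.79 and 6.86 at 0 h, 5.47 and 6.24 at 1 h, then 7.21 and 7.17 at 24 h. Its 24 h folds were above both 0 h folds by a mean ratio of 1.14. MR-t had folds of only 2.99 to 3.50 on pileups of 38 to 68, and its 3 times overlapped.

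MR-d and MR-g were held by all 6 libraries with folds of 3.57 to 8.23 and overlapping times. MR-a lacked a peak in 24h replicate 1 alone and MR-m in 0h replicate 1 alone, with folds of 4.39 to 6.64 where seen. MR-q was found at 0 h in both libraries and at each later time in 1, with folds of 5.22 to 6.11. MR-p was seen in 1 library of each time and MR-j in 1 library of 1 h and 1 of 24 h, with folds of 3.72 to 5.62. MR-e, MR-h, MR-o and MR-v each had a peak in 1 library alone, with folds of 3.51 to 5.00.

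**Figure D3:**
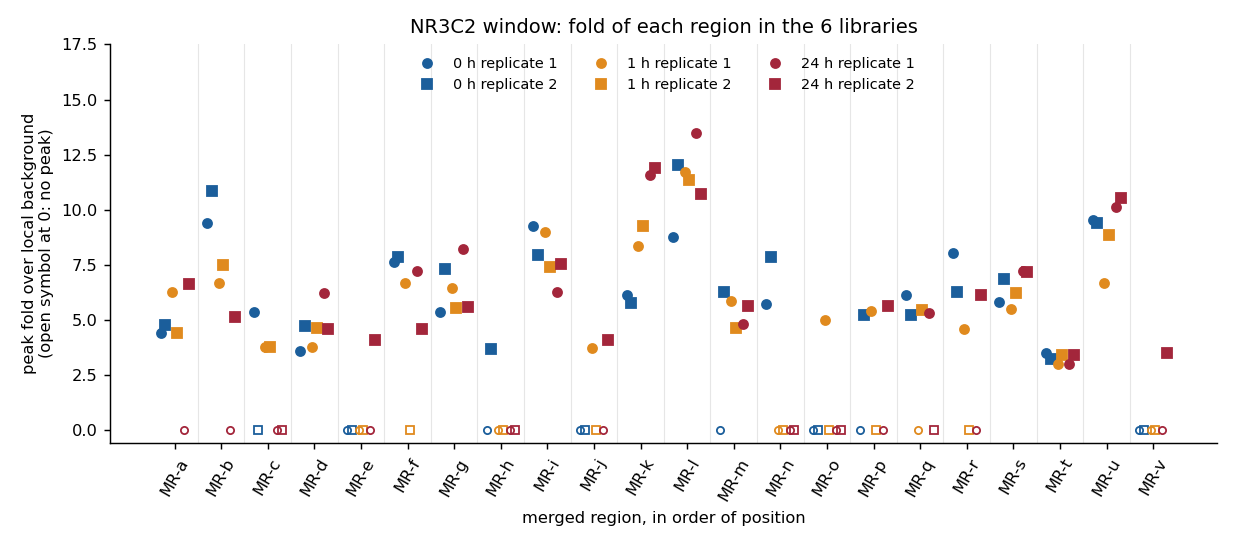
Fold over local background (vertical axis) of the 22 NR3C2 regions in order of position, for the 6 libraries; color gives the time, shape the replicate, and an open symbol at 0 a library with no peak. MR-k steps up from 6.11 and 5.74 at 0 h to 11.6 and 11.9 at 24 h, and MR-n has points at 0 h alone.

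Counting behind these folds was low for most regions. The pileup at the summit, recovered from the deposited fold and −log10 p, was 80 and 49 for GR-a at 0 h, 38 and 37 at 1 h, then 20 and 18 at 24 h. For GR-n it was 55 and 33, then 16 and 11, then 9 and 7. The exact 95% Poisson intervals at 24 h were 12.2 to 30.9 and 10.7 to 28.4 for GR-a. For GR-n they were 4.12 to 17.1 and 2.81 to 14.4. All lay below the 0 h intervals, whose lowest bounds were 36.3 and 22.7. GR-a and GR-n had been picked as falls without overlap in these same peaks, so the separation is no independent support. For MR-k the pileup was 15 and 10 at 0 h, 19 and 21 at 1 h, then 23 and 24 at 24 h. It was highest in the shallowest libraries, but its intervals overlapped between times. For GR-e it was 13 and 10, then 18 and 23, then 20 and 25, also with overlapping intervals. These intervals cover counting error only, and the sources used here do not give whether duplicate reads were removed. They stand on counts not scaled for depth, which was lowest in the 24 h libraries, so intervals of different times are not on one scale. Scaled by each library's median pileup over the regions held by all 6 libraries, the log2 ratio of 24 h to 0 h was −1.46 for GR-a, −2.16 for GR-n, 1.25 for GR-e and 1.20 for MR-k.

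**Figure D4:**
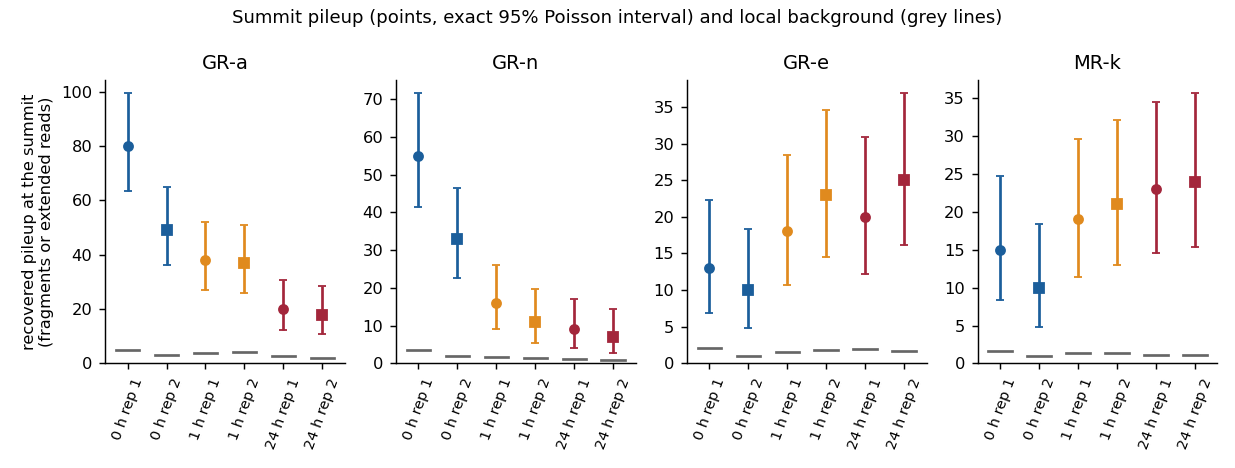
Recovered pileup at the summit (vertical axis, fragments or extended reads) of GR-a, GR-n, GR-e and MR-k in the 6 libraries, with exact 95% Poisson intervals (counting error only) and the local background as grey lines. GR-a and GR-n go from 80 and 55 in 0h replicate 1 to 18 and 7 in 24h replicate 2, while MR-k goes from 15 to 24. Pileups are not scaled for depth, and these are the deepest and the shallowest library.

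The typical kept region of the 2 loci differed little between times, and GR-n, GR-a, GR-e and MR-k stood apart from the others. For 24 h against 0 h, the median log2 ratio was 0.16 over the 10 kept NR3C1 regions and 0.13 over the 9 kept NR3C2 regions, against −0.03 over all 75341. Both 24 h folds were below both 0 h folds in 2 of 10 NR3C1 and 2 of 9 NR3C2 regions (24.1% of all kept regions), and above them in 3 of 10 and 3 of 9 (20.0%). These shares are near the background. A mean lower by at least 1.5 times without overlap was found for 2 of 10 NR3C1 regions, GR-a and GR-n, for 0 of 9 NR3C2 regions, and for 6.12% of all. A mean higher by as much was found for 1 region at each locus, GR-e and MR-k, and for 4.33% of all. GR-e was not above 1.5 times without 24h replicate 2 (log2 0.47).

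For 1 h against 0 h, the medians were −0.17 over 10 NR3C1 and −0.07 over 10 NR3C2 regions, against −0.08 over all 83375, and turned to 0.036 and 0.13 with the summit pileup scaled by library. Both 1 h folds were below both 0 h folds in 4 of 10 NR3C1 regions (GR-a, GR-j, GR-m and GR-n) and in 2 of 10 NR3C2 regions (MR-b and MR-u), against 28.8% of all. They were above in 2 NR3C1 regions, GR-b and GR-e, and in 1 NR3C2 region, MR-k, against 13.1% of all. GR-a and GR-n were lower by at least 1.5 times already at 1 h (6.25% of all kept regions), and GR-e was higher by as much (1.17%), though not without 0h replicate 1 (log2 0.50) or without 1h replicate 2 (log2 0.55). The 1 h and 24 h comparisons share the 0 h libraries, so their values stand side by side and do not support each other.

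Between 1 h and 24 h no kept region at either locus differed by 1.5 times without overlap (1.34% of all kept regions were lower and 2.99% higher by as much). The medians were 0.17 over 12 NR3C1 and 0.20 over 9 NR3C2 regions, against 0.05 over all 77835. GR-a alone was lower at 24 h than at 1 h in both libraries (1 of 12 at NR3C1 and 0 of 9 at NR3C2, against 16.1%). Higher folds in both 24 h libraries were found for 5 of 12 NR3C1 regions (GR-d, GR-g, GR-m, GR-p and GR-q) and 3 of 9 NR3C2 regions (MR-k, MR-s and MR-u), against 29.4%. GR-g and GR-q lacked a peak in one 0 h library, and among the other 6 only MR-k had also been higher at 1 h than at 0 h in both libraries.

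**Figure D5:**
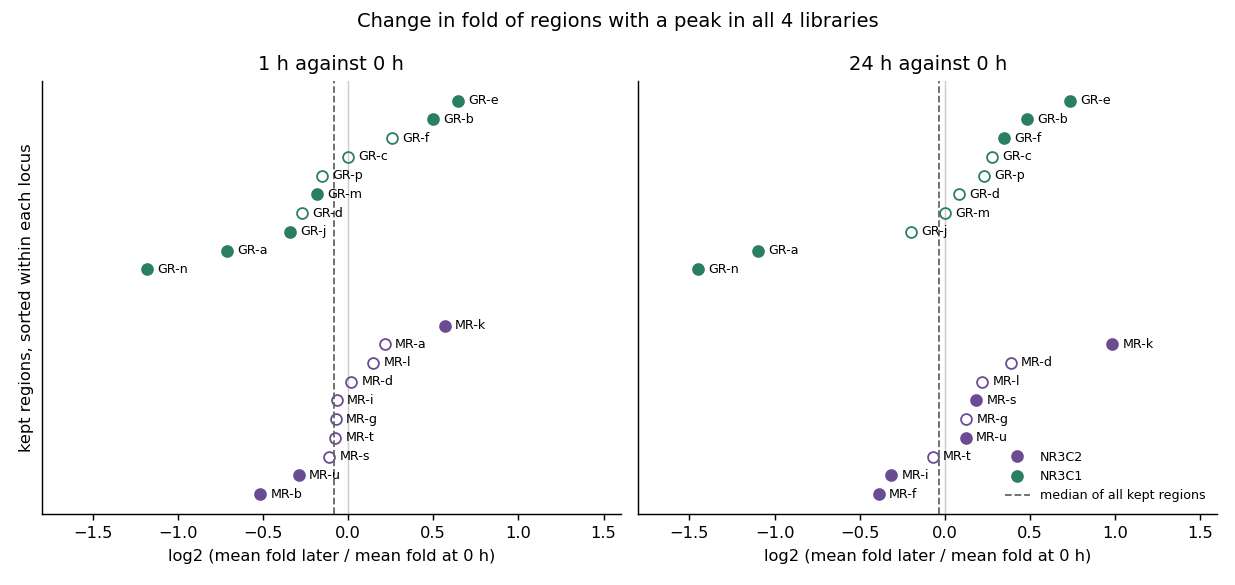
Log2 ratio of mean folds (horizontal axis) at 1 h (left) and 24 h (right) to 0 h for each region with a peak in all 4 libraries compared, NR3C1 in green and NR3C2 in purple; filled points are regions whose times did not overlap, and the dashed line is the median of all kept regions. GR-n and GR-a lie farthest left at both times, at −1.45 and −1.10 in the right panel, and MR-k farthest right at 24 h at 0.98.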

How the data were processed

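ATAC-seq peak lists of 6 libraries of 22Rv1 cells were used, 1 list per library and none pooled. The build hg19 and the tools Bowtie2, MACS2, fastp and FastQC are named per the submitters' processing notes. Not given in the sources used here are versions, parameters, transposase shift and duplicate removal. The fold (a ratio), −log10 p, −log10 q and score (10 times −log10 q, cut to a whole number) are the authors' deposited MACS2 values. The lowest −log10 q, 1.30 to 1.32, corresponds to a q-value threshold of 0.05.

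All peaks of the 22 autosomes and X were joined into regions where they shared at least 1 bp. A region's fold in a library is that of its strongest peak there, and its width is the sum over its peaks. Assuming MACS2's pseudocount of 1 and Poisson p, 100% of peaks in every list had a whole-number pileup that returned their −log10 p to within 0.001. Relative depth is the most frequent background pileup over the shortest peak (111 to 172 bp). Kept regions have a peak in all 4 libraries compared, so shares of kept regions leave out those that fell below the calling limit. No 2 lists were copies (at most 25 identical intervals).

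Regions were named by a rule: the 5 strongest at 0 h per locus, strong lost or gained ones, the 3 largest changes each way without overlap, the widest, and lost ones at 24 h. As the loci hold only 40 regions, the others were named too, after their values were seen. The members and lists were chosen with earlier results of these data known. Marker and pathway gene lists needed an hg19 annotation and were not run, so the cell type was not checked. Replicate numbers 1 and 2 recur at each time with no stated meaning, and libraries were therefore left unpaired. Alternatives were other thresholds, list lengths, summit windows, scalings and leaving out each library. Python 3.11.15, pandas 2.3.3, numpy 2.4.6, scipy 1.17.1 and matplotlib 3.10.9 were used.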

Additional observations from a re-analysis of the deposited data

How the results depend on the processing

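Weak regions rest on few fragments (a pileup of 9 has a Poisson interval of 4.12 to 17.1), and the part of depth in missing peaks was not tested. Counts of lost and gained regions were small and moved with the definition. With a −log10 q of at least 5, losses at NR3C1 were 1 for 24 h against 0 h and 1 for 24 h against 1 h, and at NR3C2 2 for 1 h against 0 h and 0 for 24 h against 1 h. With lists of one length, NR3C2 had 1 gain at 24 h against 0 h (MR-d) and 0 losses for 24 h against 1 h. For strong regions, all 3 NR3C2 loss counts were 0. Leaving out 1 library gave 0 to 1 gains at NR3C1 for 1 h against 0 h, 0 to 2 for 24 h against 0 h, and 0 to 1 losses and 0 to 1 gains for 24 h against 1 h. At NR3C2 it gave 1 to 3 losses and 0 to 2 gains for 1 h against 0 h, 2 to 4 and 0 to 3 for 24 h against 0 h, and 1 to 3 and 0 to 2 for 24 h against 1 h; fewer libraries then had to meet the condition.

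The median log2 ratio of kept regions with the scaled summit pileup was 0.036 (NR3C1) and 0.13 (NR3C2) for 1 h against 0 h, a change of sign for both, and 0.28 and 0.073 for 24 h against 1 h; with fold over the library median the last was 0.16. The cause was not tested. Leaving out 1 library gave −0.060 to 0.27 for NR3C1 at 24 h against 0 h, −0.00031 to 0.31 for NR3C2, and 0.10 to 0.30 for NR3C2 at 24 h against 1 h. The difference in peak number turned for NR3C1 at 1 h against 0 h, −0.5 to 3.5 with the lowest value without 0h replicate 2. At NR3C2 it ran from −2.5 to 0.5 (highest without 0h replicate 2), −5.5 to 1.5 and −4.5 to 2.5 (both highest without 24h replicate 1) for the 3 comparisons. With the replicate block the peak number differences were the same, 1.5, 3.5 and 2 at NR3C1 and −1, −2 and −1 at NR3C2 for the 3 comparisons in that order, and no exact sign-flip p was below 0.5, the smallest for 2 pairs. Of the named regions' ratios at 1 h, those of GR-m, MR-s and MR-t turned to 0.14, 0.18 and 0.19 with the scaled pileup, a measure added after the data were seen. Some small ratios (GR-m, MR-i, MR-l, MR-s and MR-t) also turned without 1 library or over the library median. Of 168 alternatives, 157 moved by less than the spread between replicates, and all the others were scalings. With 2 libraries per time, leaving out 1 can hardly shift a mean by more than that spread. The alternatives without 1 library were thus bound to stay within it and say nothing on how firm a ratio is.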
